A study of Mus musculus with 10 samples.

Results

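The 10 genes described are those of a core of the transforming growth factor beta (TGF-beta) system in mouse tumors, namely the ligand genes Tgfb1, Tgfb2, Tgfb3 and Inhba, the latency gene Ltbp1, the receptor genes Tgfbr1 and Tgfbr2, the effector Smad3 and the feedback inhibitors Smad7 and Skil. They were chosen by name as a signaling unit, and all 10 were found, each as 1 of the 21959 genes of the expression table. Each of the 10 tumors came from 4T1, a mouse mammary carcinoma line, injected under the skin of the abdomen of young female BALB/c mice. The exercise group (E, n = 5) ran voluntarily without a set speed or distance, and the non-exercise group (NE, n = 5) was kept in normal housing. Both groups carried the same cell line and were sampled after 21 days. How far each mouse ran was not analysed here, and the RNA came from whole tumor tissue, so that cells of the host are part of every value.

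TGF-beta ligands are secreted in a latent form, bound to their own propeptide and tethered to the matrix by latent TGF-beta binding proteins such as LTBP1. Once released, a ligand brings the type II receptor TGFBR2 together with the type I receptor TGFBR1, which phosphorylates SMAD2 and SMAD3. The SMADs then enter the nucleus with SMAD4, and among the genes they induce are inhibitors of the same pathway, SMAD7 at the receptor and SnoN (encoded by Skil) at the SMAD complex. Activin A, a dimer of the product of Inhba, uses other receptors but the same SMADs. In carcinomas the pathway is known for restraining the growth of early lesions and for promoting matrix production, immune suppression and invasion later.

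Between 15045613 and 23092251 reads were counted per tumor. Skeletal muscle transcripts differed most between the pieces, with a summed level of 12 muscle genes from 6.16 to 30354 CPM (counts scaled to a common library size, with normalization for composition), lowest in NE1 and highest in NE4. By summed CPM, E5 held the most fibroblast, neutrophil, macrophage, endothelial and platelet transcripts, and NE1 the fewest fibroblast and macrophage transcripts. Single genes did not all follow these sums. The endothelial genes Kdr, Tek, Tie1, Emcn and Egfl7 were higher in NE4 than in E5, and Pecam1, Cdh5 and Vwf were higher in E5. Adgre1, C1qa and Fcgr1 were higher in NE4, and the other macrophage genes in E5. Pf4 made up 65.5 of the 75.8 CPM of the platelet list in E5. Of 9 epithelial markers, only 4 passed the filter on low counts. Krt8 and Krt18, keratins of simple epithelium, stayed at or below 1.24 and 2.20 CPM in every tumor, and Epcam at or below 3.14 CPM in tissue labelled as mammary cancer. Krt19 (8.42 to 23.7 CPM) and Cdh1 (6.83 to 20.6 CPM) were present in every tumor, and Krt14 reached 54.2 CPM in NE5. A value near 0 has a limit here, since Tnnc2, a gene of fast muscle, was at most 0.138 CPM even in NE4, where Myh4 was 7822 CPM. Whether reads of some genes were missed in counting was not tested. In bulk tissue, fewer cells of a type and less RNA per cell cannot be told apart.

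The promoters of 4 of the genes are shown because they belong to the steadiest ligand gene (Tgfb1), to the 2 lowest and more variable ones (Tgfb2 and Inhba) and to the gene that stood apart in 1 tumor (Smad3). The RefSeq promoter table (GRCm38.p6) held entries for 7 of the 10 genes, without Tgfb3, Smad7 and Skil. Each line gives the 250 bases before the annotated start, 5′ to 3′ on the strand of the gene, at chr7:25686752-25687001 (+), chr1:186705990-186706239 (-), chr13:16011601-16011850 (+) and chr9:63757995-63758244 (-). Capitals mark matches to the GC box (GGGCGG), the TATA box and the SMAD box, each searched on both strands.
Tgfb1: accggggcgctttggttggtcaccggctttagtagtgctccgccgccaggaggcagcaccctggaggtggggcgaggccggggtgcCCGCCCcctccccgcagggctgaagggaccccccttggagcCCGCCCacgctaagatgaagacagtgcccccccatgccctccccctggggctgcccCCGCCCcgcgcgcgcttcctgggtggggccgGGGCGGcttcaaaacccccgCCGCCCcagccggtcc
Tgfb2: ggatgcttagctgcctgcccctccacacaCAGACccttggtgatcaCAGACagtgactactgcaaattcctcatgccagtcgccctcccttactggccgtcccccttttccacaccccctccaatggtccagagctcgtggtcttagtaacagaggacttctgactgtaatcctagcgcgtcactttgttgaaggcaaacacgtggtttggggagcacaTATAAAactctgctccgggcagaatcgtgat
Inhba: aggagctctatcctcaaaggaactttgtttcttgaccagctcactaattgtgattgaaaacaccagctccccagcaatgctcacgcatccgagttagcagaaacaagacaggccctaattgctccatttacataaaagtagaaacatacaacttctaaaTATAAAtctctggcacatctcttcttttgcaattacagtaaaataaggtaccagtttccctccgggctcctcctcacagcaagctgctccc
Smad3: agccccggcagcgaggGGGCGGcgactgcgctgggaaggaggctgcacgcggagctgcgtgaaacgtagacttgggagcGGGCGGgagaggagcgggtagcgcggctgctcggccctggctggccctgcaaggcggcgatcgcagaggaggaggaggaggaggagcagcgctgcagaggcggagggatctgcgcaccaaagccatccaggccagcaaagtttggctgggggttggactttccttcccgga

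The promoter of Tgfb1 was rich in GC (75.2%, against a median of 52.4% over 32851 promoters) and held 5 GC boxes but no TATA box. The promoter of Smad3 (69.2% GC) held 2 GC boxes and no TATA box. In contrast, Tgfb2 and Inhba each had 1 TATA box, 31 and 91 bases before the start at its first base, and no GC box. A TATA box (TATAAA) was present in 12.4% of all promoters of this length and a GC box in 32.7%. SMAD boxes (CAGAC), 2 of which lie in the Tgfb2 window and none in the other 3, are short enough to occur in 42.2% of all promoters. The palindrome GTCTAGAC, known from SMAD-binding promoters, occurred in 0.167% of the promoters and in none of the windows of the 7 genes. Such matches describe the letters only.

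The level of the genes was compared with FPKM, which are scaled for gene length, so that the order depends on the deposited lengths. Ltbp1 was the highest with a median of 55.7 FPKM over the 10 tumors, followed by Tgfbr2 with 34.3. Tgfb1 (15.5), Tgfb3 (13.8), Tgfbr1 (13.4), Skil (12.6), Smad7 (10.7) and Smad3 (7.43) formed a middle range, and Tgfb2 (2.02) and Inhba (1.73) were lowest. The step from Ltbp1 to Tgfbr2 was seen in 9 of 10 tumors, the exception being E5 (exact two-sided sign-flip test within tumors, p = 0.00391, adjusted over 9 neighboring pairs 0.0117). The steps from Tgfbr2 to Tgfb1 and from Smad3 to Tgfb2 were seen in all 10 tumors (exact sign-flip test, p = 0.00195 each, adjusted 0.00879, the smallest p that 10 tumors allow). Skil exceeded Smad7 in 9 of 10 tumors (exact sign-flip test, adjusted p = 0.0308). The other 5 neighboring pairs, namely Tgfb1 and Tgfb3, Tgfb3 and Tgfbr1, Tgfbr1 and Skil, Smad7 and Smad3, and Tgfb2 and Inhba, did not differ beyond their spread over tumors (exact sign-flip test, adjusted p from 0.0844 to 0.287).

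**Figure D1:**
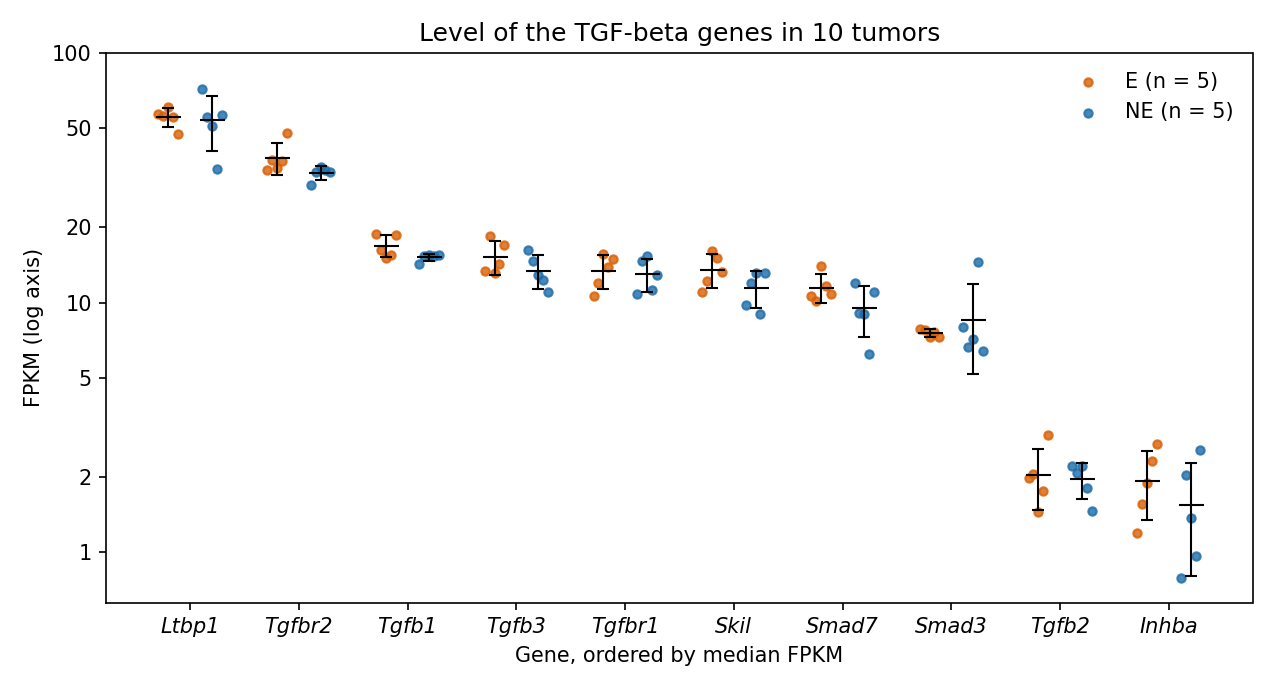
FPKM (log axis) of the 10 TGF-beta genes in the 5 tumors of E and the 5 tumors of NE, with 1 point per tumor and bars for the mean and SD. Ltbp1 and Tgfbr2 lie above the other genes, Tgfb2 and Inhba below 3 FPKM, and the Smad3 value of 14.5 in NE4 lies apart.

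Whether running changed these genes was asked with edgeR's quasi-likelihood test across 13517 genes, and all 10 genes passed its filter on low counts. A call required an FDR no higher than 0.05 together with a change of 2-fold or more. None of the 10 genes met it, and neither did any gene of the table (0.00% of the genes tested, smallest FDR 0.897 by edgeR). The same threshold gave 0 genes with DESeq2, limma-trend and limma-voom with sample weights, of which DESeq2 had 3 genes at an FDR of at most 0.05 without the fold change. None of the 10 genes had an unadjusted p of at most 0.05, which 657 genes did (4.86%). The estimate was above 0, that is higher in E, for 9 of the 10 genes with a median log2 fold change of 0.14, beside 46.0% of all genes tested and a median of -0.01. It was above 0 for 7 genes without E5 and for 7 without E3. The groups overlapped in all 10 genes, while 0.725% of all genes tested did not overlap.

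**Figure D2:**
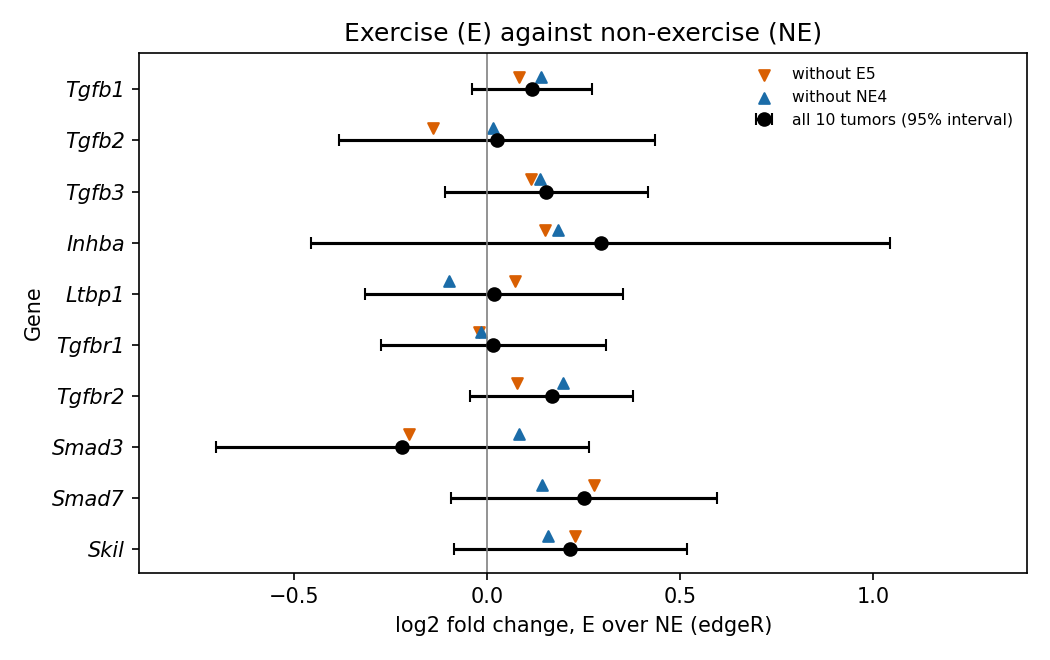
Log2 fold change of E over NE for the 10 genes by edgeR, with the 95% interval from all 10 tumors (black) and the estimates without E5 and without NE4 (triangles). Every interval includes 0, and the estimate of Smad3 moves from -0.22 to 0.08 without NE4.

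Among the ligands, Tgfb1, which encodes the most widely expressed isoform, was the least variable. Its FPKM were 18.8, 16.3, 15.1, 15.6 and 18.7 in E1 to E5 and 14.3, 15.4, 15.6, 15.4 and 15.4 in NE1 to NE5. E1 and E5 were above every NE tumor in FPKM and in CPM. E2 and, by a very small margin, E4 were so in FPKM only, and E3 lay within the NE range in both. The mean was 16.9 ± 1.74 FPKM in E and 15.2 ± 0.513 FPKM in NE (SD, n = 5 each). Its log2 fold change was 0.12 (standard error 0.070, 95% interval -0.04 to 0.27, edgeR FDR 0.897). The biological coefficient of variation of Tgfb1, 0.103, lay at percentile 9.04 of the genes tested.

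Tgfb3, an isoform known from palate fusion and mesenchymal cells, reached nearly the level of Tgfb1 in FPKM. This rests on the deposited gene lengths, 3383 bases for Tgfb3 and 5042 bases for Tgfb1. In CPM, which are not scaled for length, the mean was 51.0 in E and 45.9 in NE for Tgfb3, and 84.2 and 77.6 for Tgfb1. Tgfb3 had 13.4, 18.5, 13.1, 14.3 and 17.1 FPKM in E1 to E5 and 16.2, 14.7, 12.9, 12.3 and 10.99 FPKM in NE1 to NE5. The highest value was that of E2 and the lowest that of NE5, and the groups overlapped widely in between. For E over NE it gave a log2 fold change of 0.15 (standard error 0.12, 95% interval -0.11 to 0.42, edgeR FDR 0.897), and it was 0.081 without E2, 0.092 without NE5 and 0.23 without NE1. In the coordinates of the table Tgfb3 overlaps Ttll5, a gene of the opposite strand with 514 to 952 reads, and since the counting is not stated to use strand, reads of both cannot be told apart where they overlap.

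Tgfb2, the isoform needed for heart and eye development, was low in both groups. Its 173 to 295 reads per tumor gave 1.98, 2.06, 1.449, 1.75 and 2.95 FPKM in E1 to E5 and 2.21, 2.08, 2.22, 1.81 and 1.46 FPKM in NE1 to NE5. Only E5 lay above the NE range. The log2 fold change was 0.03 (standard error 0.18, 95% interval -0.38 to 0.43, edgeR FDR 0.989), and it was -0.14 without E5. Of the summed FPKM of the TGF-beta genes Tgfb1, Tgfb2 and Tgfb3, Tgfb1 made up 49.5% ± 3.91 in E and 49.9% ± 4.42 in NE, Tgfb3 44.6% ± 3.90 and 43.7% ± 3.98, and Tgfb2 5.89% ± 1.03 and 6.36% ± 0.743 (SD, n = 5 each). The shares of the isoforms were thus close in both groups, given as a description without a test. How the sum divides between isoforms depends on the deposited gene lengths.

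Inhba, the gene of the activin A subunit, varied most of the 10 genes, 3.44-fold between the lowest and the highest FPKM. It had 1.198, 1.56, 1.90, 2.31 and 2.70 FPKM in E1 to E5 and 0.786, 2.03, 1.36, 0.968 and 2.55 FPKM in NE1 to NE5. Low and high tumors occurred in both groups, with NE1 and NE4 the lowest. Its coefficient of variation, 0.393, lay at percentile 87.2 of the genes tested. The log2 fold change of 0.29 therefore had a standard error of 0.34 and a 95% interval from -0.45 to 1.04 (edgeR FDR 0.913). It was 0.14 without NE1, 0.15 without E5, 0.18 without NE4 and 0.56 without NE5.

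Ltbp1, the matrix anchor of the latent complex, had 57.2, 56.1, 60.6, 55.3 and 47.2 FPKM in E1 to E5 and 71.5, 55.3, 50.8, 34.4 and 56.4 FPKM in NE1 to NE5. Both the highest and the lowest tumor were in NE, namely NE1 and NE4. The mean was 55.3 ± 4.95 FPKM in E and 53.7 ± 13.3 FPKM in NE (SD, n = 5 each), and the log2 fold change was 0.02 (standard error 0.15, 95% interval -0.32 to 0.35, edgeR FDR 0.990). It was -0.10 without NE4 and 0.14 without NE1.

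Of the receptors, Tgfbr2, the constitutively active type II kinase, had 34.0, 37.3, 34.6, 37.0 and 47.7 FPKM in E1 to E5 and 29.6, 33.5, 35.1, 34.0 and 33.5 FPKM in NE1 to NE5. E5 stood apart at the top and NE1 was the lowest. Its log2 fold change was 0.17 (standard error 0.095, 95% interval -0.04 to 0.38, edgeR FDR 0.897), and it fell to 0.08 without E5. Tgfbr1, the type I kinase that phosphorylates SMAD2 and SMAD3, had 10.7, 11.99, 15.6, 13.9 and 15.0 FPKM in E1 to E5 and 10.8, 14.7, 15.3, 11.3 and 12.9 FPKM in NE1 to NE5. The groups covered almost the same range, with a log2 fold change of 0.02 (standard error 0.13, 95% interval -0.28 to 0.31, edgeR FDR 0.990). The type II receptor gene exceeded the type I receptor gene 2.22-fold to 3.19-fold in FPKM over the 10 tumors.

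Smad3, the receptor-activated transcription factor of the pathway, was the only gene of the 10 with an estimate below 0, and that estimate rested on 1 tumor. It had 7.87, 7.77, 7.27, 7.59 and 7.24 FPKM in E1 to E5 and 7.97, 6.66, 7.17, 14.5 and 6.41 FPKM in NE1 to NE5. The other 9 tumors lay between 6.41 and 7.97 FPKM, far below NE4. The log2 fold change was -0.22 (standard error 0.22, 95% interval -0.70 to 0.26, edgeR FDR 0.898) with all tumors and 0.08 (standard error 0.074, edgeR FDR 0.881) without NE4. NE4 also had the most skeletal muscle transcripts, 30354 CPM summed over the 12 genes against 6.16 to 4235 CPM in the other 9 tumors, and its muscle genes Acta1, Myh4 and Atp2a1 stood at 6504, 7822 and 3557 CPM. Over those 9 tumors Smad3 stayed between 36.1 and 43.3 CPM. With the skeletal muscle score (mean log2(CPM + 1) of the 12 genes) as a covariate, the log2 fold change was -0.20 (standard error 0.16, edgeR FDR 0.766). Smad3 and this score had r = 0.648 (permutation p = 0.0823, adjusted 0.367) and rho = 0.345 (permutation p = 0.330, adjusted 0.799). Without NE1 and NE4, r was 0.568. These values do not measure the part of muscle in the Smad3 value, which was not tested.

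The feedback gene Smad7, an inhibitory SMAD that competes for the type I receptor, had 10.7, 10.2, 14.0, 11.7 and 10.8 FPKM in E1 to E5 and 12.01, 9.12, 8.97, 6.25 and 10.97 FPKM in NE1 to NE5. All 5 tumors of E were above the NE median, E3 was the highest and NE4 the lowest. It gave a log2 fold change of 0.25 (standard error 0.16, 95% interval -0.09 to 0.60, edgeR FDR 0.897). With the skeletal muscle score as a covariate, it was 0.30 (standard error 0.074, edgeR FDR 0.516), without NE1 0.35 (standard error 0.15, edgeR FDR 0.505), and without NE4 0.14 (standard error 0.13, edgeR FDR 0.879). Without E3 it was 0.16. In the first and the second of these settings, and in no other, the unadjusted p of Smad7 was at most 0.05. Skil, whose product SnoN represses SMAD complexes on DNA, had 11.1, 12.2, 16.2, 15.0 and 13.3 FPKM in E1 to E5 and 9.82, 12.01, 13.2, 9.03 and 13.1 FPKM in NE1 to NE5. Its log2 fold change was 0.22 (standard error 0.14, 95% interval -0.08 to 0.52, edgeR FDR 0.897), and 0.13 without E3. E3 was the highest tumor for both feedback genes and NE4 the lowest for both.

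With each gene taken alone, an exact permutation of the tumors between E and NE (two-sided, on log2(CPM + 1)) gave p from 0.111 (Tgfbr2) to 0.984 (Tgfb2). The smallest p that this design allows is 0.00794.

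**Figure D3:**
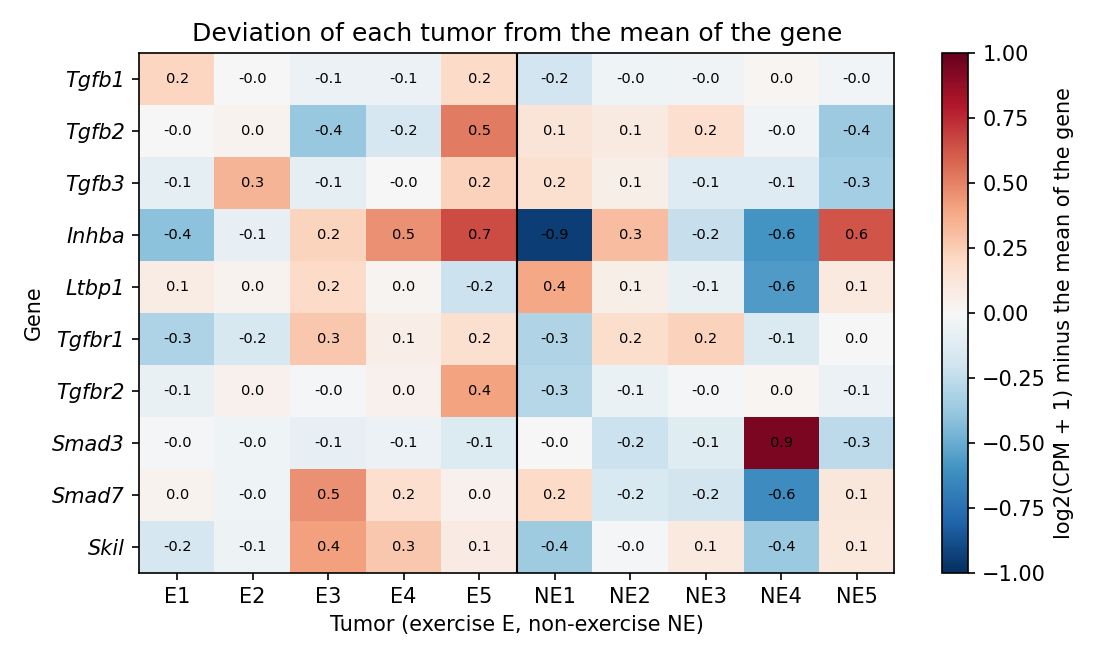
Deviation of log2(CPM + 1) in each tumor from the mean of the gene over the 10 tumors, with red for higher and blue for lower. NE4 is highest for Smad3 and low for Ltbp1, Smad7, Skil and Inhba, and E5 is high for Tgfb2, Tgfbr2 and Inhba.

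Next, it was examined which of the genes varied together between tumors. Of 45 pairs, 7 had an unadjusted permutation p of at most 0.05 for Pearson's r and 0 kept it after Benjamini-Hochberg adjustment (100000 permutations, 10 tumors). The highest r was that of Ltbp1 and Smad7 (r = 0.810, permutation p = 0.0103, adjusted 0.154; Spearman's rho = 0.697, permutation p = 0.0310, adjusted 0.279). Without NE1 and NE4, the tumors farthest from the median of Ltbp1, r was 0.526. Tgfbr1 and Skil followed (r = 0.785, permutation p = 0.00791, adjusted 0.154; rho = 0.721, permutation p = 0.0233, adjusted 0.279), with r = 0.691 without E1 and NE1. Inhba and Skil had r = 0.765 (permutation p = 0.0101, adjusted 0.154; rho = 0.697, permutation p = 0.0304, adjusted 0.279), with r = 0.469 without NE1 and NE4. The lowest r, that of Ltbp1 and Smad3 (r = -0.711, permutation p = 0.0819, adjusted 0.335; rho = -0.0545, permutation p = 0.892, adjusted 0.939), rested on NE1 and NE4, since it was 0.0519 without them. By rho, the most negative relation was that of Inhba and Smad3 (rho = -0.818, permutation p = 0.00592, adjusted 0.266, and r = -0.536, permutation p = 0.0900, adjusted 0.338), with r = -0.630 without NE1 and NE4. Next came Ltbp1 and Tgfbr2 (rho = -0.758, permutation p = 0.0155, adjusted 0.279, and r = -0.563, permutation p = 0.108, adjusted 0.375), with r = -0.794 without NE1 and NE4. Smad3 and Skil came after them (rho = -0.661, permutation p = 0.0445, adjusted 0.334, and r = -0.575, permutation p = 0.0706, adjusted 0.335), with r = -0.347 without NE4 and NE5. Tgfb1 and Tgfb3, the ligand genes of nearly equal FPKM, had r = 0.0315 (permutation p = 0.932) and rho = -0.127 (permutation p = 0.734). With 5 tumors per group, no correlation was computed within groups, and the labels name no batch.

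The genes were also set beside scores of other cell types, the mean log2(CPM + 1) over each of 8 marker lists. Of 80 relations, 14 had an unadjusted permutation p of at most 0.05 and 0 after adjustment. Tgfbr2 went with the neutrophil score (r = 0.925, permutation p = 0.00412, adjusted 0.0824; rho = 0.539, permutation p = 0.113, adjusted 0.504) and the fibroblast score (r = 0.876, permutation p = 0.00367, adjusted 0.0824; rho = 0.758, permutation p = 0.0147, adjusted 0.154). Without E5 and NE1, these were 0.133 and 0.541, so that the first rested on those tumors. In E5, where Tgfbr2 was highest, the 10 fibroblast genes summed to 15553 CPM against 991 to 5130 CPM in the other tumors. Most of the sum in E5 came from Col1a1 (3833 CPM), Col1a2 (3910 CPM) and Col3a1 (7004 CPM), which are also among the TGF-beta-induced genes listed below. Fap and Dpt were highest in NE4 and Pi16 in E4, and the other genes of the list were highest in E5. The 8 neutrophil genes summed to 687 CPM in E5 against 103 to 416 CPM, although Ly6g, the defining surface marker, was at most 0.353 CPM in every tumor, a value near 0 to which the limit given for Tnnc2 applies.

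Tgfb1 rose with the macrophage or monocyte score in rank order (rho = 0.879, permutation p = 0.00169, adjusted 0.0676, and r = 0.757, permutation p = 0.0100, adjusted 0.132), with r = 0.484 without E5 and NE1. In rank order Tgfb1 rose likewise with the neutrophil (rho = 0.770, permutation p = 0.0123, adjusted 0.154), T cell (rho = 0.685, permutation p = 0.0339, adjusted 0.246) and fibroblast scores (rho = 0.661, permutation p = 0.0439, adjusted 0.292). Their r of 0.713, 0.534 and 0.662 fell to 0.402, 0.362 and 0.0398 without the 2 farthest tumors. Tgfb3 ran against the epithelial score (r = -0.824, permutation p = 0.00237, adjusted 0.0824; rho = -0.879, permutation p = 0.00168, adjusted 0.0676), with r = -0.706 without NE4 and NE5, a list of which 4 of 9 genes passed the filter. With the platelet score, of which 4 of 7 genes passed, Tgfb3 had rho = 0.782 (permutation p = 0.0103, adjusted 0.154). Its r there was 0.578 (permutation p = 0.0825, adjusted 0.367), and 0.739 without E4 and E5. Ltbp1 ran against the T cell score (r = -0.881, permutation p = 0.00321, adjusted 0.0824; rho = -0.758, permutation p = 0.0149, adjusted 0.154), the skeletal muscle score (r = -0.829, permutation p = 0.00651, adjusted 0.104; rho = -0.697, permutation p = 0.0304, adjusted 0.243) and the fibroblast score (r = -0.764, permutation p = 0.0158, adjusted 0.133; rho = -0.758, permutation p = 0.0154, adjusted 0.154). Without the 2 farthest tumors these were -0.596, -0.236 and -0.666. The r of Ltbp1 was also negative with the macrophage or monocyte score (r = -0.757, permutation p = 0.0312, adjusted 0.227, and rho = -0.709, permutation p = 0.0268, adjusted 0.238). With the endothelial score it was -0.748 (permutation p = 0.0167, adjusted 0.133, and rho = -0.358, permutation p = 0.313, adjusted 0.799). The first was -0.745 without E5 and NE1, and the second turned to 0.384 without E5 and NE4. Smad7 also ran against the muscle score (r = -0.780, permutation p = 0.0132, adjusted 0.132; rho = -0.855, permutation p = 0.00297, adjusted 0.0792), with r = -0.610 without NE1 and NE4. The part of these cell types in the values of the 10 genes was not tested.

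**Figure D4:**
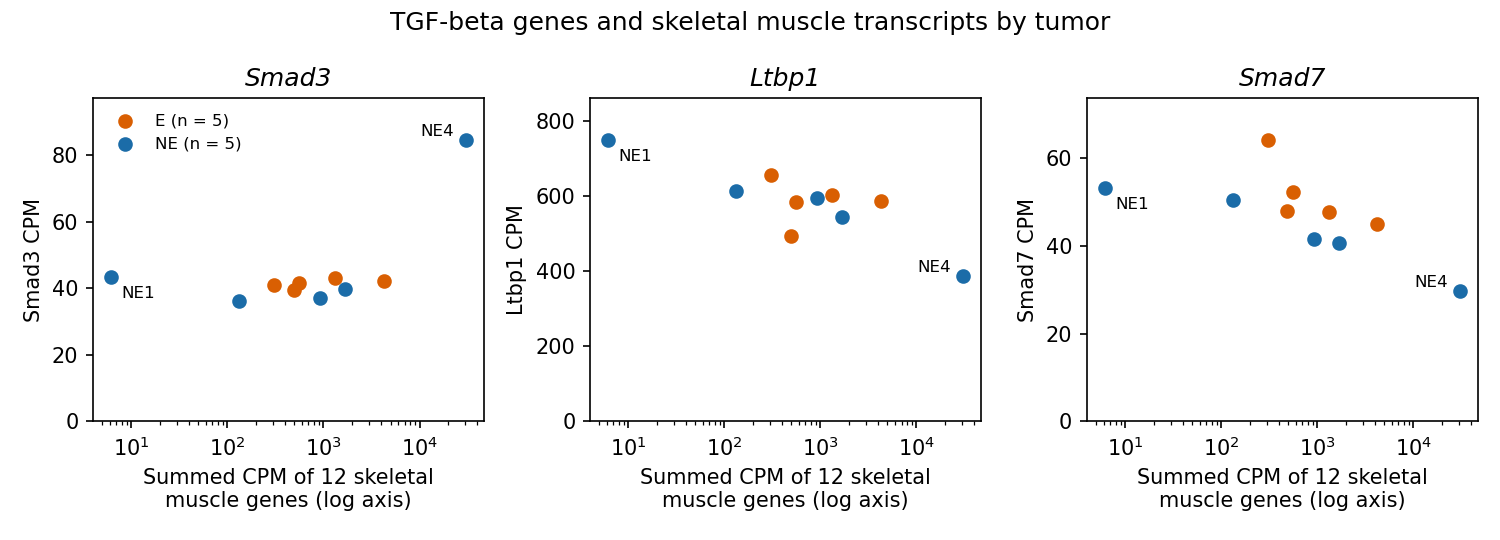
CPM of Smad3, Ltbp1 and Smad7 in each tumor against the summed CPM of 12 skeletal muscle genes (log axis), with 1 point per tumor. Smad3 is at 84.5 CPM in NE4 and between 36.1 and 43.3 CPM elsewhere, and Ltbp1 and Smad7 are lowest in NE4.

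As a description, the 2 other genes with the most similar pattern over the 10 tumors were found for each of the 10 genes by Pearson's r of log2(CPM + 1). For Tgfb1 these were Ifitm2 (r = 0.969), an interferon-induced membrane protein, and Clec4d (r = 0.968), a C-type lectin of myeloid cells, with 0.907 and 0.922 without E1 and E5. For Ltbp1 they were Runx2 (r = 0.974), the transcription factor of osteoblasts, and Traf3ip1 (r = 0.969). For Tgfbr2 they were Pdgfrl (r = 0.970) and Fbn1 (r = 0.961), the gene of the microfibril protein that binds latent TGF-beta complexes, with 0.590 and 0.778 without E5 and NE1. Smad7 ran with Sgk1 (r = 0.972), a kinase gene induced by glucocorticoids, and Fras1 (r = 0.970), and Skil with Nt5dc1 (r = 0.979) and Lgals8 (r = 0.936). Smad3 had the highest value, with Coq9 (r = 0.988), a gene of ubiquinone synthesis in mitochondria, and Fitm2 (r = 0.985), a gene of lipid droplet formation, and these fell to 0.816 and 0.732 without NE4 and NE5. For Tgfb2 (Taok2 and Mospd3), Tgfb3 (Tbc1d22b), Inhba (Ms4a14 and Stk38) and Tgfbr1 (Ufsp2 and Mtmr6), r was between 0.902 and 0.965. The points share libraries, and the genes were picked as the highest among all genes tested.

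The rest of the pathway was read from 6 lists with 79 genes, of which 69 passed the filter. None was called (smallest FDR 0.897 by edgeR). Without adjustment, 9 of the 69 (13.0%) had p up to 0.05 with a higher estimate in E and 0 with a lower one. Of all genes tested, 2.57% were higher and 2.29% lower at this p. The lists were chosen with earlier results of these data known, so setting them beside all genes is a description and no independent comparison. The median log2 fold change over the 69 genes was 0.11, beside -0.01 over all genes tested. The authors' table assigns 95 genes to the KEGG TGF-beta signaling pathway, 9 of the 10 genes among them (Skil is not). Of the 76 that were tested, 0 were called and the median was 0.02. At an unadjusted p of at most 0.05, 2 were higher in E and 0 lower, beside 2.57% and 2.29% of all genes tested.

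Among genes that TGF-beta is known to induce, 18 of 20 were tested, 17 had an estimate above 0, and the median was 0.28. Of all genes tested, 46.0% were above 0, with a median of -0.01. Ccn1, a matricellular protein that is also induced by YAP and serum, had 88.4, 59.6, 75.9, 64.1 and 63.4 FPKM in E1 to E5 and 53.6, 41.7, 41.0, 23.5 and 47.0 FPKM in NE1 to NE5. It was the only one of the 18 whose groups did not overlap in FPKM, with a log2 fold change of 0.74 (standard error 0.19, edgeR FDR 0.897). Over all genes tested, the groups did not overlap in 0.725% (by CPM). Junb, an AP-1 subunit and early response gene, had 54.9 ± 3.21 FPKM in E and 45.3 ± 4.59 FPKM in NE (SD, n = 5 each, log2 fold change 0.25, edgeR FDR 0.897). Ccn2, connective tissue growth factor, had 14.6 ± 2.80 and 10.7 ± 2.53 FPKM (log2 fold change 0.43, edgeR FDR 0.897). The collagen genes Col1a1, Col1a2 and Col3a1 and the gene Postn had estimates from 0.88 to 1.32 and standard errors from 0.47 to 0.78. They were named after their values were seen, and without E5 the estimates were 0.39 (Col1a1), 0.38 (Col1a2), 0.28 (Col3a1) and 0.43 (Postn). With all tumors, 3 of the 18 were higher and 0 lower with an unadjusted p up to 0.05, beside 2.57% and 2.29% of all genes. Without E5, 13 of the 18 were above 0 with a median of 0.13, and 2 were higher with an unadjusted p up to 0.05, beside 1.51% of all genes. There were 4 without NE1, beside 5.82% of all genes, and 4 without NE4, beside 2.44%.

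**Figure D5:**
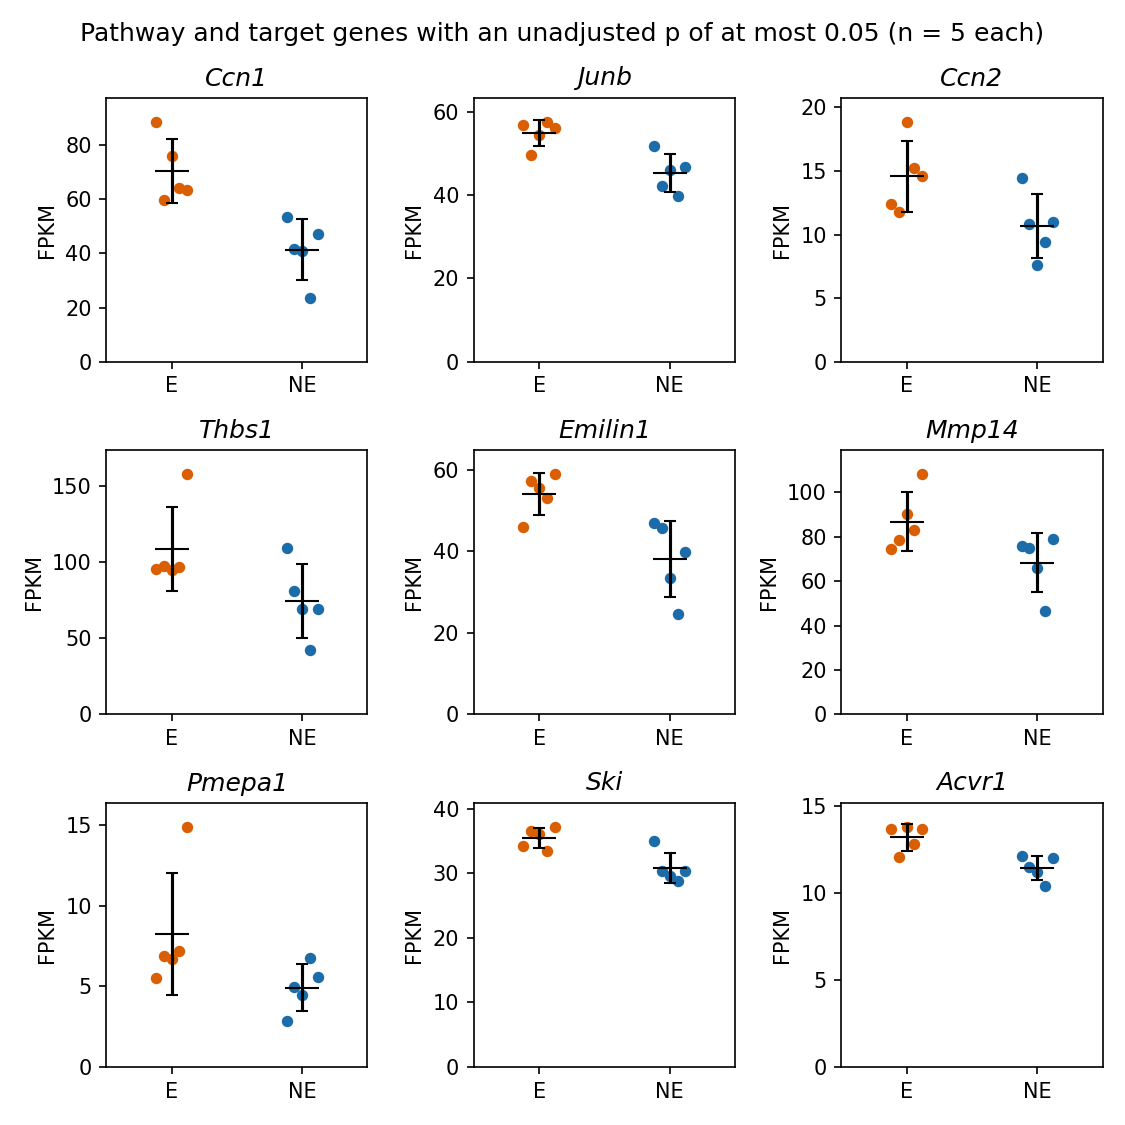
FPKM by tumor of the 9 pathway and target genes with an unadjusted p of at most 0.05 by edgeR (FDR 0.897 for each), with the mean and SD of 5 tumors per group. Only Ccn1 shows groups without overlap, beside 0.725% of all genes tested (by CPM). E5 is the highest tumor of E for Thbs1, Pmepa1, Mmp14, Emilin1 and Ski.

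Of the genes that store or release latent TGF-beta, 13 of 14 were tested and 12 had an estimate above 0 (median 0.16). Of all genes tested, 46.0% were above 0 (median -0.01). Emilin1, whose product restrains the maturation of the TGF-beta precursor, had 54.0 ± 5.07 FPKM in E and 38.1 ± 9.19 FPKM in NE (SD, n = 5 each, log2 fold change 0.48, edgeR FDR 0.897). Thbs1, thrombospondin 1, an activator of latent TGF-beta, had 108 ± 27.4 and 74.2 ± 24.3 FPKM (log2 fold change 0.52, edgeR FDR 0.897), with 157 FPKM in E5 and 42.1 FPKM in NE4. Mmp14, a membrane-bound metalloproteinase, had 86.8 ± 13.2 and 68.4 ± 13.2 FPKM (log2 fold change 0.32, edgeR FDR 0.897). With an unadjusted p up to 0.05, 3 genes of this list were higher and 0 lower with all tumors (2.57% and 2.29% of all genes). There was 1 higher without E5 (1.51% of all genes) and 1 without NE4 (2.44% of all genes). Without NE1, 5 were higher, where the share over all genes also rose, to 5.82%.

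Of the other receptors and coreceptors, 10 of 11 were tested, with a median of 0.04. Acvr1, a type I receptor of activin and bone morphogenetic proteins, had 13.2 ± 0.754 FPKM in E and 11.5 ± 0.699 FPKM in NE (SD, n = 5 each, log2 fold change 0.17, edgeR FDR 0.897). The coreceptor genes Eng and Tgfbr3 had log2 fold changes of 0.09 and 0.15 (edgeR FDR 0.897 each). Of the activin and inhibin subunits and secreted antagonists, 7 of 10 were tested with 0 at an unadjusted p of at most 0.05, and Inha, Bgn and Inhbb had estimates of 0.41, 0.58 and 0.26 with standard errors of 0.31, 0.49 and 0.25.

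Of the other SMADs and nuclear cofactors, 8 of 10 were tested, 5 had an estimate below 0, and the median was -0.01. Zfyve9, which anchors SMADs at endosomes, Ep300, a coactivator, and Trim33, a ubiquitin ligase of SMAD4, had log2 fold changes of -0.15, -0.07 and -0.12 (edgeR FDR 0.897, 0.897 and 0.898). Of the other feedback inhibitors and ubiquitin regulators, 13 of 14 were tested with a median of 0.01. Ski, the paralog of Skil, had 35.5 ± 1.59 FPKM in E and 30.8 ± 2.39 FPKM in NE (SD, n = 5 each, log2 fold change 0.17, edgeR FDR 0.897). Pmepa1, a TGF-beta-induced inhibitor of SMAD phosphorylation, had 8.24 ± 3.77 and 4.91 ± 1.46 FPKM (log2 fold change 0.70, edgeR FDR 0.897), with 14.9 FPKM in E5. Of this list, 2 genes were higher and 0 lower with an unadjusted p up to 0.05 in all tumors (2.57% and 2.29% of all genes). Without E5, 1 gene was higher (1.51% of all genes), and without NE1 there were 1 higher and 2 lower (5.82% and 4.09% of all genes). Without NE4 there were 2 higher and 1 lower (2.44% and 2.26% of all genes). Strap, a receptor-associated inhibitor, had a log2 fold change of -0.12 (edgeR FDR 0.897).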

How the data were processed

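Tumor RNA of 5 E and 5 NE mice was sequenced as 1 library per mouse. Groups and replicate numbers came from the labels. Per the study's methods, Hisat2 2.0 (alignment) and Stringtie 1.3.0 (expression) were the authors' tools, with a rat assembly named as reference, while the gene identifiers are mouse. The authors deposited read counts (not normalized) and FPKM per gene, and how the counts were made is not given in the sources used here. Each deposited FPKM is its gene's count over length and library total (largest relative deviation 3.77e-14). The 51 genes without a symbol stayed in the tests.

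From the counts, edgeR 4.0.16 in R 4.3.3 was used (TMM, filterByExpr, quasi-likelihood test, Benjamini-Hochberg adjustment). A standard error is the log2 fold change divided by the root of its F value, and the 95% intervals use 10.4 degrees of freedom. CPM include the TMM factor. Single values were tested by exact permutation, correlations with 100000 permutations (scipy 1.17.1). Pseudocounts were 1 for CPM and 0.1 for the order of levels. On simulated data for E against NE (13517 genes), 159 of 200 genes changed by a log2 fold change of 1.2 reached an FDR of at most 0.05 (79.5%). So did 5 unchanged genes. The 2-fold minimum was not applied there, and genes were drawn independently, without differences in cell content between tumors. Smaller changes, such as those estimated for the 10 genes, were not simulated, so the power for them is not given.

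Alternatives were DESeq2 1.42.0, limma 3.58.1 (trend, and voom with sample weights), other scaling, no filter, the replicate block and leaving out each tumor. The muscle covariate and leaving out E5 with NE4 were chosen after seeing the data. The genes and lists were chosen with earlier results of these data known. Named genes are the 10 genes, the 3 with the smallest p of each list and the 2 most similar to each gene, and exceptions are stated. Some results under this rule are not reported here. The depth limits low genes, since 3 reads correspond to 0.130 to 0.199 CPM, and p-values measure the spread between tumors, with PCR copies not told from independent molecules.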

Additional observations from a re-analysis of the deposited data

Results flagged for a closer look

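Single tumors that lay far from the rest of E or NE, judged by the distance to their closest neighbor relative to the spread of all 5 (Dixon's ratio), are listed here. This was looked for 36 times and found 5 times, where about 1.8 would arise by chance. The first 2 concern the 10 genes. Tgfbr2 was 382 CPM in E5, against 275 to 299 CPM in the other tumors of E. Smad3 was 84.5 CPM in NE4, against 36.1 to 43.3 CPM in the other tumors of NE. The other 3 are scores of cell types, in mean log2(CPM + 1). The neutrophil score was 5.36 in E5 (2.65 to 2.95 in the others of E), the macrophage or monocyte score was 5.96 in NE1 (7.27 to 7.65 in the others of NE), and the endothelial score was 4.34 in NE4 (3.44 to 3.66). The tumors that stood apart for Tgfbr2 and Smad3 thus also stood apart in a cell type score, and the part of those cells was not tested.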

How the results depend on the processing

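Of the 10 genes, 6 kept the direction of the estimate in all 19 alternatives, and none of the 10 reached an FDR of at most 0.05 in any, the smallest being 0.379 (Tgfb3, limma-voom with sample weights). Estimates turned for Tgfbr1 with weighted limma-voom (-0.13) and without E5 and NE4 (-0.056), for Smad3 with weighted limma-voom (0.074) and without E5 and NE4 (0.097), for Tgfb2 with the replicate block (-0.00101) and without E5 and NE4 (-0.15), and for Ltbp1 without E5 and NE4 (-0.046). The cause was not tested. Leaving out 1 tumor each gave log2 fold changes of -0.14 to 0.12 for Tgfb2, -0.10 to 0.14 for Ltbp1, -0.054 to 0.10 for Tgfbr1 and -0.31 to 0.08 for Smad3.

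The number of genes at an unadjusted p of at most 0.05 was 657. It was 1800 with limma-voom and sample weights (voom without weights was not run), 1059 with the muscle score as a covariate, 340 without E5 and NE4, and 372 (without E5) to 1350 (without NE1) when 1 tumor was left out, with 400 without NE3. Calling by an unadjusted p and also dropping the 2-fold minimum thus changed the number called from 0 to 657. DESeq2 left 3 genes at an FDR of at most 0.05, none of them called. In the order of levels, 8 of the 9 neighboring pairs kept their order without E2, without NE1 or without NE2, and all 9 did in the other alternatives.

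The study describes its tumors as matched pairs, but neither its text nor the labels say what was matched or that the numbers mark the pairs. Tumors of the same number did not vary together in every pair (correlations from -0.325 to 0.316), so the block was kept as an alternative. The replicate block gave 714 genes at an unadjusted p of at most 0.05 and called 0. For none of the 5 numbers did both tumors correlate best with each other.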
